A study of Homo sapiens with 2 samples.

Results

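The loci of 6 transcription factor genes, 4 of the ETS family (ETS1, FLI1, ELF1 and ETV6) and 2 of the RUNX family (RUNX1 and RUNX3), were examined for peaks of the histone methyltransferase KMT2D (MLL4). The data were 1 list of KMT2D ChIP-seq peaks from OCI-LY7, an established lymphoma line labelled GCB-DLBCL (diffuse large B-cell lymphoma of the germinal centre type) with the genotype wt. There was 1 KMT2D library, for which the submitters used their own antibody to the N-terminal end of KMT2D, and 1 input library, made without antibody and not analysed here. With 1 ChIP library, no value below has a replicate check, no p-value was computed, and sequencing depth is not known. A peak belonged to a locus when its highest point lay in a fixed window on hg19. These windows were 128.28 to 128.51 Mb of chromosome 11 for ETS1, 128.51 to 128.73 Mb of chromosome 11 for FLI1, 41.45 to 41.69 Mb of chromosome 13 for ELF1, 11.75 to 12.1 Mb of chromosome 12 for ETV6, 36.11 to 36.47 Mb of chromosome 21 for RUNX1 and 25.18 to 25.34 Mb of chromosome 1 for RUNX3. They held 54 of the 24824 listed peaks. Of the whole list, 24772 peaks lay on chromosomes 1 to 22 and X, and these were used for every comparison.

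KMT2D methylates lysine 4 of histone H3, above all at enhancers, and mutations that inactivate it are frequent in B-cell lymphoma. ETS proteins share a DNA-binding domain, the ETS domain, that reads a GGAA core. ETS1 restrains the step from B cell to plasma cell in mice, FLI1 and ELF1 are activators active in blood cells, and ETV6 is a repressor that carries a Pointed domain through which it forms polymers. RUNX proteins bind DNA through the Runt domain together with the partner CBFB. RUNX1 is required for early B-cell development in mice, and RUNX3 acts in lymphocytes. RUNX1 and RUNX3 are each transcribed from a distal and a proximal promoter. ETV6 and RUNX1 are also the genes joined in a common fusion of childhood B-cell leukaemia.

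To show what the members' own recognition motifs look like at the start of a member gene, 1 matching promoter stretch is printed here as context for the loci. RefSeq promoter sequence on GRCh38.p14 was at hand for ELF1 with 3 starts, RUNX3 with 2 starts, and ETV6 and RUNX1 with 1 start each, and ETS1 and FLI1 had no entry. The 250 bases before each start were searched on both strands for the RUNX motif TGTGGT, which reads ACCACA on the opposite strand, and for the ETS motif CCGGAAG, which reads CTTCCGG on the opposite strand. RUNX3 held 2 RUNX motifs before the more upstream of its starts, on chr1:24965098-24965171 of GRCh38.p14, minus strand. Printed 5′ to 3′ along that strand, with the motifs in capitals, this stretch reads:
RUNX3: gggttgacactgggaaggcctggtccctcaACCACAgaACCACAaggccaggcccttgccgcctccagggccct
Among 34943 promoter stretches of 250 bases before a start, 10.99% held the RUNX motif at least once and 0.973% held it 2 or more times. No further match of either motif lay in the 250 bases before any start listed for these genes, and 8.48% of all stretches held the ETS motif. Only these exact letters were searched, so other sequences with a GGAA core were not counted. A match of letters describes the sequence only. The GRCh38.p14 positions were not converted to hg19, the build of the peaks. Whether a peak lies on the printed RUNX3 stretch was therefore not analysed, nor which gene a peak lies in. In the order of RefSeq coding genes, ETS1 and FLI1 are direct neighbours, with KIRREL3 before ETS1 and KCNJ1 after FLI1. ELF1 lies between SLC25A15 and WBP4, and ETV6 between PRB2 and BCL2L14. RUNX1 lies between CLIC6 and SETD4, and RUNX3 between CLIC4 and SYF2. Peaks of such neighbours may fall inside a window, and which neighbours reach into one was not analysed.

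KMT2D peaks were dense at these loci. Together the windows spanned 1.56 Mb and held 34.6 peaks per Mb (exact Poisson 95% interval 26.004 to 45.2), against 8.43 peaks per Mb in the rest of the list, a ratio of 4.11 (exact 95% interval 3.08 to 5.36). Peaks covered 2.2% of the windows and 0.583% of the rest. These intervals cover counting error over peaks, which cluster and are not independent, and say nothing about another library. The windows were drawn around genes, whereas the rest of each chromosome also holds gene-poor stretches.

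ETS1 had the highest density of the 6 loci, with 13 peaks or 56.5 per Mb (30.1 to 96.7), against 9.52 per Mb in the rest of chromosome 11. FLI1 followed with 11 peaks or 50 per Mb (24.96 to 89.5). The ratios to the rest of chromosome 11 were 5.94 (3.15 to 10.2) for ETS1 and 5.25 (2.61 to 9.43) for FLI1. ETV6 held 12 peaks, 34.3 per Mb, against 9.76 per Mb in the rest of chromosome 12, a ratio of 3.51 (1.81 to 6.16). ELF1 held only 6 peaks, 25 per Mb, but the rest of chromosome 13 had 4.66 per Mb, so its ratio was 5.36 (1.96 to 11.8). RUNX1 had 8 peaks, 22.2 per Mb, against 7.47 per Mb in the rest of chromosome 21, a ratio of 2.97 (1.27 to 5.94). RUNX3 had 4 peaks, 25 per Mb, against 9.94 per Mb in the rest of chromosome 1, a ratio of 2.52 whose interval of 0.685 to 6.45 includes equal density. With windows widened by 50 kb on each side, the RUNX3 ratio was 3.49 (1.59 to 6.64) from 9 peaks, and its interval no longer included 1, whereas that of RUNX1 did, at 2.32 (0.992 to 4.64). Merging peaks under 500 bp apart gave RUNX1 2.25 (0.724 to 5.33). Among the highest-scoring 50% of peaks, the ratios were 2.77 (0.57 to 8.13) at FLI1 from 3 peaks, 2.26 (0.614 to 5.81) at ETV6 from 4 peaks and 0.813 (0.0204 to 4.61) at RUNX1 from 1 peak, and these 3 intervals included equal density.

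The order of the loci is not resolved by these counts. Of 14 pairs of windows with unequal density, 0 had a ratio whose interval lay above 1. ETS1 over RUNX1 came closest, at 2.54 (0.977 to 7.08). The 4 ETS windows together had 40.4 peaks per Mb (29.1 to 54.6) and the RUNX windows 23.1 (11.9 to 40.3), a ratio of 1.75 with an interval of 0.904 to 3.65.

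Laid end to end, windows of the same width along chromosomes 1 to 22 and X place each locus within the list. At least as many peaks as at ETS1 were found in 2.64% of 12746 such windows, and at least as many as at FLI1 in 3.72% of 13325. ETV6 was matched or exceeded in 6.67%, ELF1 in 11.7%, RUNX3 in 12.5% and RUNX1 in 13.2%. Between 44.01% and 59.8% of these windows, depending on their width, held no peak at all. Among windows with at least 1 peak, the shares were 5.595% for ETS1, 8.04% for FLI1, 12.05% for ETV6, 23.5% for RUNX1, 24.2% for ELF1 and 31.1% for RUNX3. The fullest window of ETS1's width on chromosome 11 held 36 peaks, so neither chromosome 11 locus was the densest of its chromosome.

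**Figure D1:**
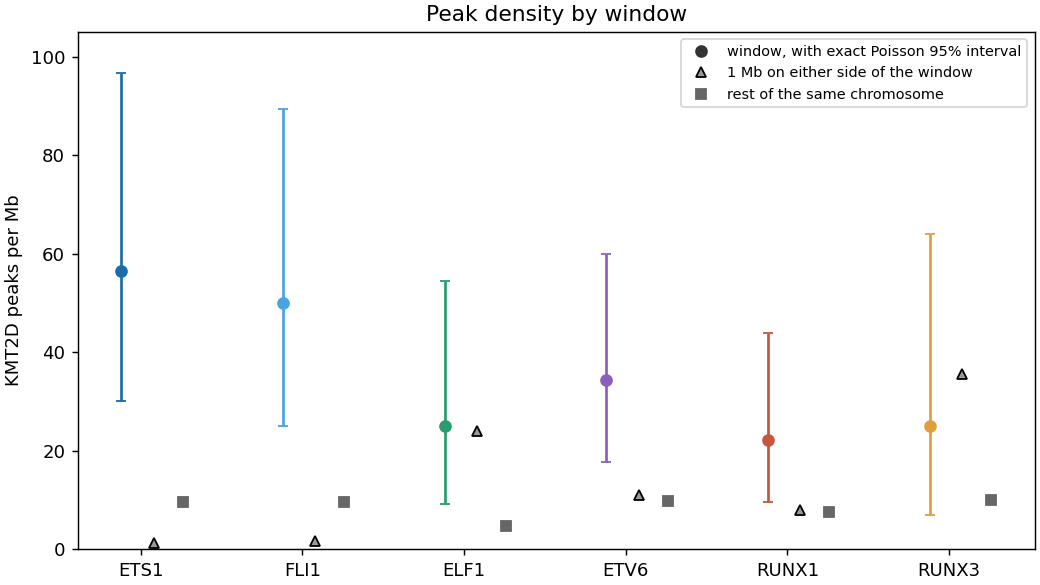
KMT2D peaks per Mb (vertical axis) in the window of each gene (circles, with exact Poisson 95% intervals), in the 1 Mb on either side of the window (triangles) and in the rest of the same chromosome (squares), from 1 library. The circles of ETS1 and FLI1, at 56.5 and 50 peaks per Mb, stand far above their triangles at 1.12 and 1.69, whereas at RUNX3 the circle, at 25, is below the triangle, at 35.5. The window of the other gene is left out of the triangles of ETS1 and FLI1.

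Set against the 1 Mb on either side of the window, the loci had ratios from 0.704 to 50.3, a wider range than the 2.52 to 5.94 against the rest of the chromosome. This comparison was chosen after the densities were seen. The highest ratio, 50.3 at ETS1, had an interval of 11.4 to 459.2, from 2 flanking peaks. FLI1 had 29.5 (7.79 to 164.7), from 3 flanking peaks. For ETS1 and FLI1, the window of the other gene was left out of the flanks. With that window counted, the 1 Mb above ETS1 held 11 peaks and the 1 Mb below FLI1 held 15. ETS1 and FLI1 formed an island of 24 peaks in 0.45 Mb (53.3 per Mb), against 3 peaks in the 1 Mb below and the 1 Mb above combined (1.5 per Mb), a ratio of 35.6 (10.8 to 184.5). Of those 3 peaks, 2 lay below and 1 above, and their heights ran from 21 to 35. Beyond the last FLI1 peak, no peak was listed for 993 kb, from 128627404 to 129620692, the 23rd longest of 1296 stretches between neighbouring peaks on chromosome 11, where the median stretch was 13.99 kb. ETV6 exceeded its surroundings 3.12 times (1.41 to 6.58), with 12 peaks in the window and 22 in the flanks. At RUNX1 the ratio was 2.78 (1.03 to 6.88), from 8 peaks in the window and 16 in the flanks.

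ELF1 and RUNX3 did not stand out from their neighbourhoods. ELF1 had 25 peaks per Mb, against 24 per Mb in its flanks, a ratio of 1.04 (0.364 to 2.44). RUNX3 had 25 peaks per Mb, against 35.5 per Mb from 71 flanking peaks, a ratio of 0.704 (0.187 to 1.88). Both intervals include equal density, and their width leaves room for a difference in either direction.

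**Figure D2:**
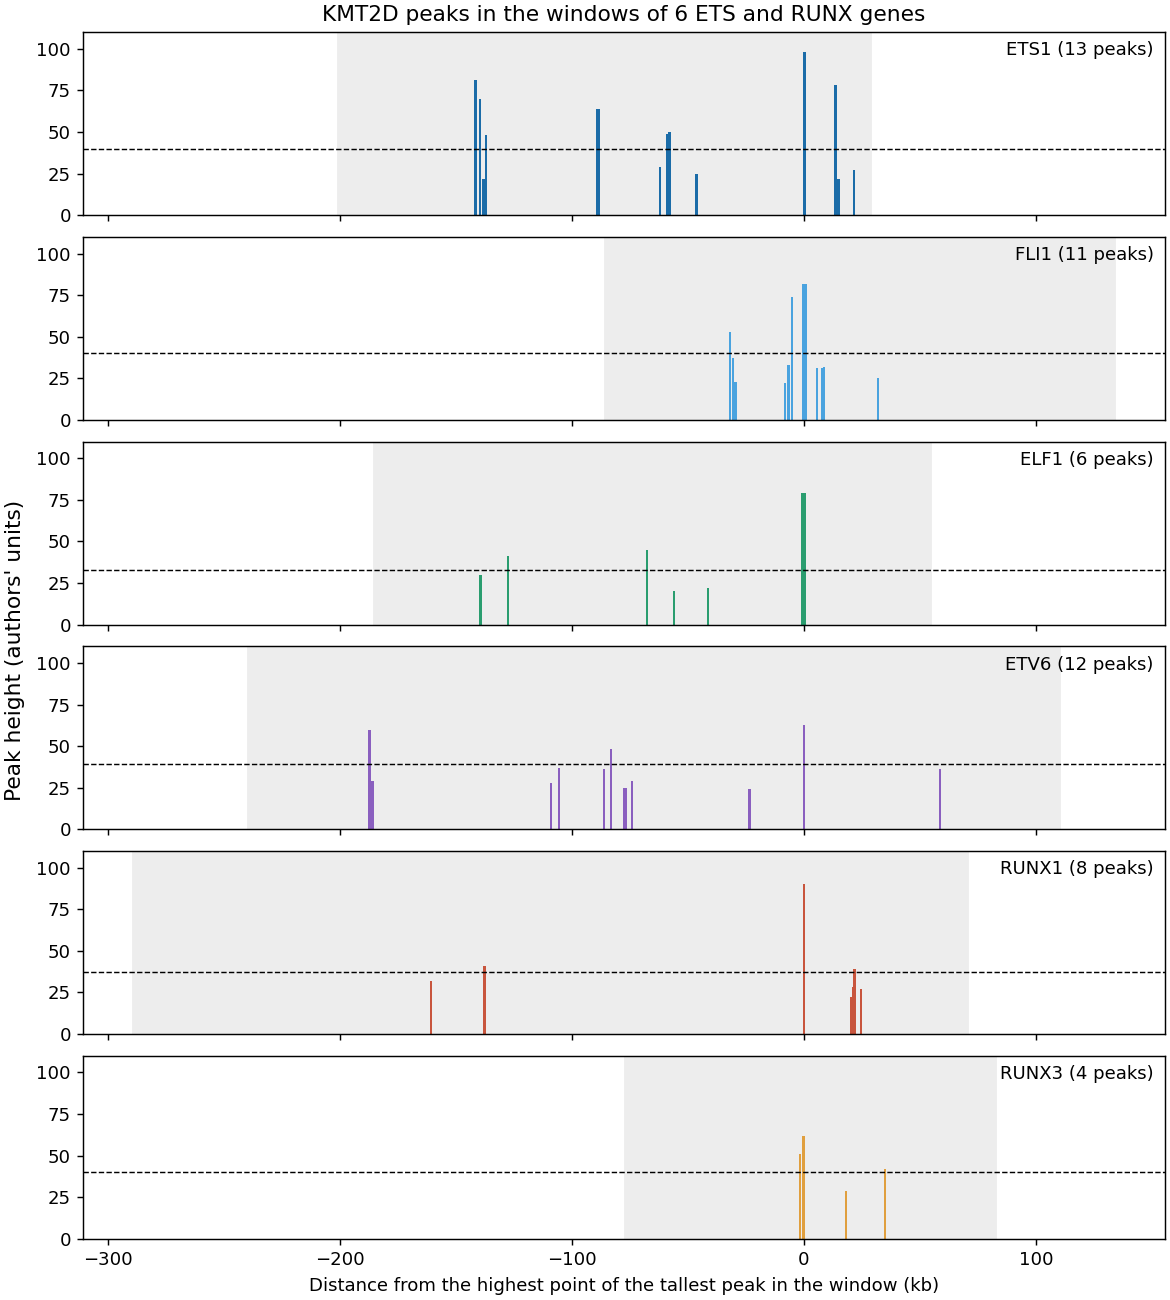
Each bar is a KMT2D peak, placed by its distance in kb from the highest point of the tallest peak in the same window (horizontal axis) and drawn to its height in the authors' units (vertical axis); peaks under 1 kb wide are drawn 1 kb wide. Grey marks the window, and the dashed line the median height in the rest of the chromosome; ETS1 peaks fall in 3 groups and 1 lone peak, whereas 5 of the 8 RUNX1 peaks sit together near the right end.

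At ETS1 the peaks fell into 3 clusters and 1 lone peak, where peaks at most 12.5 kb apart count as a cluster. The first cluster, on chromosome 11 at 128338916 to 128343992, held 4 peaks of heights 81, 70, 22 and 48 within 5.08 kb. Height is a whole number per peak in the authors' units, whose scale is not stated, and its median over the list was 39. The lone peak, at 128391485 to 128392914, was 1429 bp wide with a height of 64. A second cluster, at 128418359 to 128434363, had lower peaks of heights 29, 49, 50 and 25. The third, at 128480423 to 128502390, opened with the tallest and widest peak of the locus, at 128480423 to 128481938, which had a height of 98, a width of 1515 bp and a significance value of -71.6. The authors' significance column resembles log10 of a p-value, with no entry above -15. The other peaks of that cluster had heights of 78, 22 and 27. ETS1 thus carried peaks above the chromosome's median height of 40 in separate places over 163 kb. They were 8 of its 13 peaks. The list median was also exceeded by 8, with 49.7% of the list above it. The locus median of 49 had an interval of 25 to 78, which includes 40. Between ETS1 peaks, the longest stretch without a listed peak was 47.5 kb, from 128343992 to 128391485, and 58.9 kb at the lower end of the window held none.

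FLI1 peaks were confined to 64.1 kb of a window of 220 kb. A first cluster at 128563257 to 128566035 held 3 peaks of heights 53, 37 and 23 in 2.78 kb, with 78.3% of that span covered. After 20.9 kb came the cluster with the most peaks at any of the 6 loci, 7 peaks at 128586949 to 128604155. Their heights in order were 22, 33, 74, 82, 31, 31 and 32. The tallest of them, at 128595047 to 128596971, was also the widest FLI1 peak at 1924 bp. The last peak, at 128627206 to 128627404, was alone and low, with a height of 25. Of the 11 FLI1 peaks, 3 were above the chromosome's median height of 40. The list median was also exceeded by 3, with 49.7% of the list above it. The locus median of 32 had an interval of 23 to 74, which includes 40. At the upper end of the window, 102.6 kb held no peak. ETS1 and FLI1 peaks were separated by 60.9 kb, so no cluster joined the neighbouring genes.

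At ELF1, the 6 peaks were spread over 141 kb and formed clusters of only 2 peaks each, beside lone peaks. Heights in order were 30, 41, 45, 20, 22 and 79. The peak of height 79, at 41634044 to 41636291 on chromosome 13, was 2247 bp wide, and it was the 1 peak over 2000 bp among the 54 (1.85%; exact 95% interval 0.0469 to 9.89%), against 2.22% of the list. It held 33.3% of the summed height of the locus and ranked 25th by height among the 447 peaks of chromosome 13. Next outside the window, 17.1 kb beyond its upper edge, stood a peak of height 83. Whether the peak of 79 belongs to ELF1 or to its neighbour WBP4 was not analysed. The longest empty stretch inside the locus was 58.98 kb, from 41508169 to 41567149.

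ETV6, the longest of the ETS windows at 350 kb, had no peak taller than 63. Its 12 peaks had heights of 60, 29, 28, 37, 36, 48, 25, 25, 29, 24, 63 and 36 in order, with a median of 32.5 (order-statistic 95% interval 25 to 48), against 39 in the rest of chromosome 12. The first, at 11801568 to 11802979, was the widest at 1411 bp, and a stretch of 76.8 kb without a listed peak followed the small peak beside it. A cluster of 5 low peaks, the largest at this locus, lay at 11902904 to 11915540 and reached 48. The tallest peak, with a height of 63, stood alone at 11989049 to 11989894. It was 845 bp wide.

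RUNX1 peaks lay at both sides of the longest empty stretch found inside any of the windows, 136 kb from 36262549 to 36398874 on chromosome 21. Below it stood lone peaks of heights 32 and 41, and the second of these, at 36260992 to 36262549, was the widest at 1557 bp. Above it, a lone peak at 36398874 to 36399788 reached 90, the tallest of the locus and the 15th tallest of the 290 peaks on chromosome 21. Its significance value of -72.9 was the most extreme of all 54. Some 19.7 kb further, 5 peaks of heights 22, 18, 28, 39 and 27 were packed into 4.37 kb at 36419489 to 36423860. Neighbours in this group were as little as 137 bp apart, and merging peaks under 500 bp apart left 5 peaks at RUNX1 in place of 8. Outside the locus, the nearest peaks were 250.2 kb below the first RUNX1 peak and 170.5 kb above the last.

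RUNX3 had the fewest peaks, and they were of middling height. In order the heights were 51, 62, 29 and 42, with a median of 46.5, against 40 in the rest of chromosome 1. The first of them, at 25254997 to 25255958, and the tallest and widest, at 25256110 to 25257336 with 1226 bp, were 152 bp apart and together covered 93.5% of a 2.34 kb stretch. The others were lone peaks at 25274733 to 25274935 and at 25291354 to 25292022. Between RUNX3 peaks no empty stretch exceeded 17.4 kb, and the longest in the window was 74.997 kb at its lower end. Just outside the window, 5.16 kb below and 5.99 kb above its edges, stood peaks of heights 35 and 33, and with windows widened by 50 kb on each side the RUNX3 count was 9 in place of 4.

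Peaks close to a window edge were examined at the other loci too. On the inside, the last ETS1 peak was 7.71 kb from its upper edge (height 27), and at FLI1, ETV6 and RUNX1 the nearest highest point was 46.2 kb or more from an edge. Outside, the nearest peak not belonging to another window lay 44.7 kb away at ETS1 (height 21) and 51.3 kb away at ETV6 (height 20). At RUNX1 a peak of height 81 lay 122.5 kb below the lower edge.

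**Figure D3:**
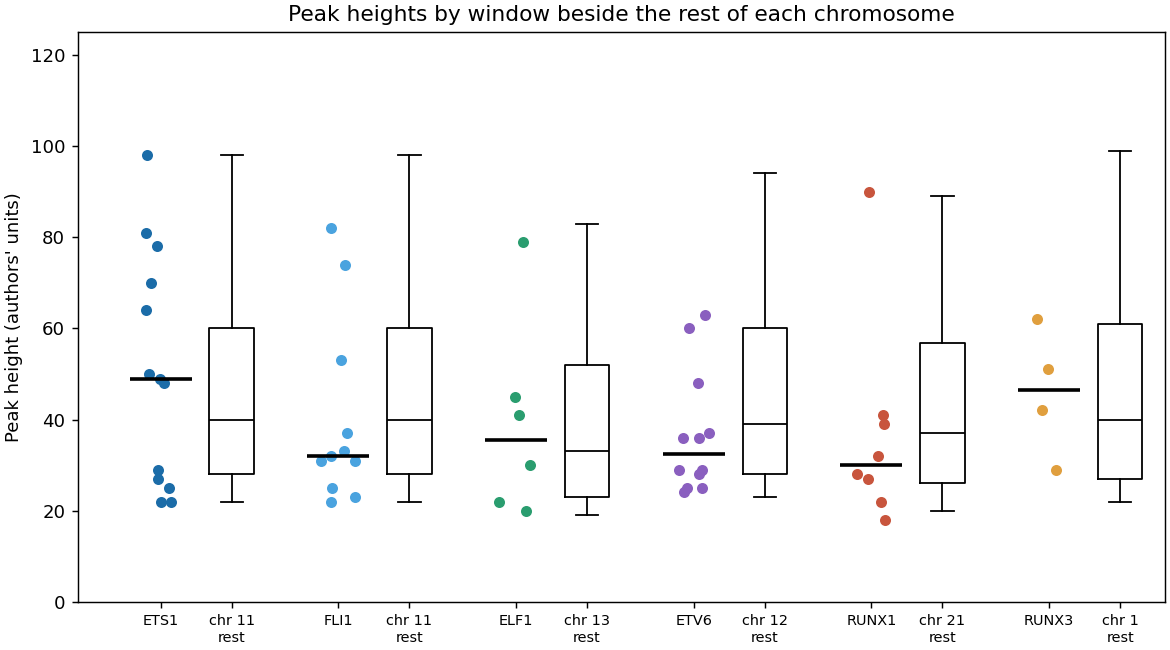
Heights of KMT2D peaks in the authors' units (vertical axis): each point is 1 peak of the locus and each short bar the locus median, beside a box of the rest of the same chromosome (median, quartiles, and whiskers at the 5th and 95th percentiles). Points of every locus overlap the box beside it, with locus medians from 30 at RUNX1 to 49 at ETS1.

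The density of these loci was not matched by tall peaks. Over all 54 peaks the median height was 34.5 (order-statistic 95% interval 29 to 42), against 39 (39 to 40) in the rest of the list, so the intervals overlapped. Heights ran from 18 to 98, whereas the tallest peak of the list reached 320. A height of 80 or more, the 90th percentile of the list, was reached by 4 of the 54 (7.41%; exact 95% interval 2.06 to 17.9%), with 10.4% of all listed peaks at or past it. These 4 were the ETS1 peaks of 98 and 81, the RUNX1 peak of 90 and the FLI1 peak of 82. Ranked within its own chromosome, since the lowest listed height was 17 on chromosome 13 and 20 on chromosome 12, 3 peaks passed the 90th percentile, with 10.0% of the list past it. They included the ELF1 peak of 79, and neither the FLI1 peak of 82 nor the ETS1 peak of 81. Above the list median stood 22 of the 54 peaks (40.7%; 27.6 to 54.97%), with 49.7% of the list there.

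ETS1 and RUNX3 had locus medians above their chromosomes, at 49 against 40 and 46.5 against 40. ELF1 was close to its chromosome, at 35.5 against 33. FLI1, ETV6 and RUNX1 were below, at 32 against 40, 32.5 against 39 and 30 against 37. For the 5 loci with enough peaks for an interval, it included the chromosome's median in each case. RUNX3, with 4 peaks, allows no 95% interval of the median.

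**Figure D4:**
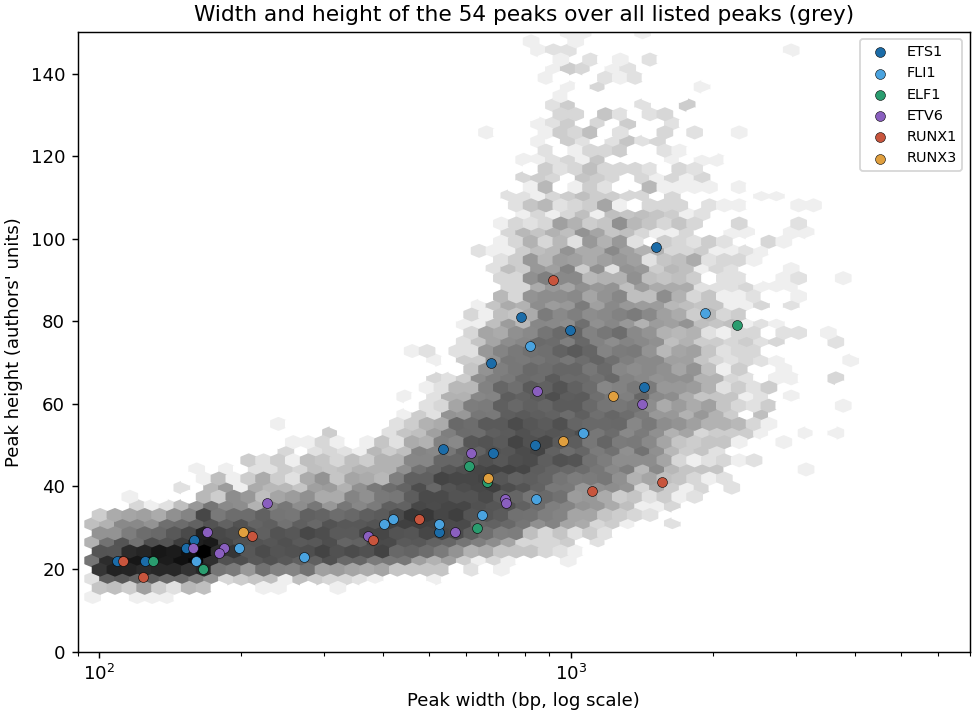
Peak width in bp (horizontal log axis) against height in the authors' units (vertical axis) for the 54 peaks, coloured by gene, over all listed peaks (grey, darker where more peaks lie; taller peaks than 150 are not shown). The coloured points follow the grey cloud, from narrow peaks of up to 200 bp at heights of 18 to 29 to the ELF1 peak of 2247 bp.

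Peaks of the same locus differed widely in width. The median width was 588.5 bp (380 to 682 bp) for the 54 peaks, against 609 bp (601 to 618 bp) in the rest of the list. Among the 54, 14 were at most 200 bp wide (25.9%; 14.96 to 39.7%), with 21.0% of the list at or below that width, and their heights were 18 to 29. The 15 peaks of over 800 and up to 2000 bp had heights of 37 to 98 with a median of 62, and those of the same class in the list had a median of 63. Across the 54 peaks of this 1 library, the Spearman correlation between width and height was 0.903, against 0.841 across the list. Narrow peaks of up to 200 bp were found at 5 of the 6 loci, 4 each at ETS1 and ETV6 and 2 each at FLI1, ELF1 and RUNX1, and the narrowest at RUNX3 was 202 bp.

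KMT2D peaks of these loci were mostly clustered. Of the 54, 42 lay in a cluster of 2 or more (77.8%; 64.4 to 87.96%), with 63.4% of the list clustered. They formed 12 clusters, none of which crossed the edge of a window. Clusters of 5 or more held 17 of the 54 (31.5%; 19.5 to 45.6%), with 21.7% of the list in clusters of that size, and there were 3 of them, 1 each at FLI1, ETV6 and RUNX1. ETS1 had 12 of 13 peaks in clusters, FLI1 10 of 11, ETV6 9 of 12, ELF1 4 of 6, RUNX1 5 of 8 and RUNX3 2 of 4. In the highest-scoring 50% of peaks, where 22 of the 54 were left, 50% of these and 36.5% of the list were clustered. The clustered share depends on peak density by its construction, so it is no separate measure of these loci.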

How the data were processed

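KMT2D ChIP-seq was done in OCI-LY7 cells with 1 ChIP and 1 input library; per the labels' protocols, fixation was in 1% formaldehyde for 10 min and chromatin was sheared to between 200 and 400 bp. Per the submitters' processing notes, CASAVA 1.8.2 and hg19 were used; aligner, peak caller, threshold and any input correction were not given in the sources used here. A single peak list without a header was deposited by the authors, so columns were read from their values: a signal per peak, taken as its height, 2 score columns (one resembles log10 of a p-value), and the highest point also as a percent of the way along the peak. Whether signal was normalized is not stated. Width equalled end minus start in all 24824 peaks (tolerance 0 bp). Positions are printed as listed; whether they count from 0 or 1 is not stated.

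Densities for the rest of a chromosome leave out the windows and use the distance from its first to its last peak. Intervals are exact Poisson for densities, exact conditional for ratios, exact binomial for shares and order-statistic for medians, at 95%. Members, windows and lists were chosen with earlier results of these data known. Named were, per window, the tallest and widest peak, peaks at or past the 90th percentile of height, clusters of 5 or more and the longest empty stretch; any further peak was picked with its values known. Other ETS and RUNX family genes were also planned but not analysed, as no hg19 annotation was used. The functions were tested on simulated data. Computation was in Python 3.11.15 (scipy 1.17.1, numpy 2.4.6, pandas 2.3.3), and figures in matplotlib 3.10.9.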

Additional observations from a re-analysis of the deposited data

How the results depend on the processing

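With 1 library, an alternative value was taken as moved if it fell outside the 95% counting interval of the value reported. The median height of RUNX3 has no such interval, so its lowest and highest heights, 29 and 62, were used as the range. Of 76 alternative values, 68 stayed within the interval or range and 8 fell outside. Ratios turned from above to below 1 at 2 loci, RUNX1 and RUNX3. The ratio of 4.11 for the 6 loci together was between 3.34 (highest-scoring 50% of peaks) and 3.902 (common minimum height of 26) under its 6 alternatives. Keeping the highest-scoring 50% of peaks left 22 peaks with a median height of 61 and 50% in clusters, against 36.5% of the list, and score rose with height, so the higher median follows from that choice (54 at ETV6, against 32.5 over all its peaks); stitching at 25 kb put 94.4% in clusters, against 73.7% of the list, which a longer distance can only raise. The RUNX1 ratio fell to 0.813 (0.0204 to 4.61) among the highest-scoring 50% of peaks, where 1 peak was left. Of 30 alternative ratios of single loci with an interval, 7 changed whether it included 1: FLI1, ETV6 and RUNX1 under that setting, RUNX1 after merging, RUNX1 and RUNX3 with widened windows, and ELF1 against its flanks. The 1 Mb on either side was an alternative chosen after seeing the data. Against it, ETS1 had a ratio of 50.3 (11.4 to 459.2) from 2 flanking peaks. FLI1 had 29.5 (7.79 to 164.7) from 3 flanking peaks. The adjoining window of the other gene was left out of both. The ratios were 1.04 at ELF1 and 0.704 (0.187 to 1.88) at RUNX3. The RUNX3 interval included 1 in both comparisons. Of 36 alternative ratios of single loci, 34 were above 1. No paired analysis was possible because there is 1 ChIP library. Sequencing depth is not known, and an empty stretch is one with no listed peak, not one shown to lack KMT2D.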
